A study of Arabidopsis thaliana with 33 samples.

Results

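The 34 genes described here encode Arabidopsis factors that shorten, decap, tail, survey or degrade RNA in the cytoplasm and the nucleus. They were chosen by gene identifier from known roles in RNA decay, with earlier results of these data known. All 34 were found among the 33557 genes of the table. Each of the 34 was at or above 1 FPKM (fragments normalised for transcript length and sequencing depth) in every genotype, whereas 20704 of all genes reached 1 FPKM in at least 1 genotype. Poly(A) RNA came from the aerial parts of untreated plants aged 20 days, of which 6 were spent on MS medium and 14 in soil, labelled as collected at hour 15. The 11 groups, of 3 libraries each, comprised Col-0 as wild type, single mutants of ein5-1, ski2-2, dcl2-1 and dcl4-2, and, for ein5-1 and for ski2-2, the double with dcl4-2, the double with dcl2-1 and the triple with both. The labels describe no lesion for any allele and no marker gene shared by the groups. Values were pooled over libraries before deposit, 1 FPKM for each genotype and gene, so those below have no SD.

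A messenger RNA usually loses its poly(A) tail first, by deadenylases such as the CCR4-NOT complex and PARN. It is then either decapped and digested from the 5′ end by XRN4, called EIN5 here, or threaded by the SKI complex into the exosome and digested from the 3′ end. Nuclear exosome helicases, the nuclear XRN enzymes, nonsense-mediated decay and uridylation of RNA ends feed the same machines. In plants, decay intermediates that escape these routes can be copied into double-stranded RNA and cut by the Dicer-like enzymes DCL4 and DCL2, which is the setting in which the study combined the 4 alleles.

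Most decay factor transcripts moved little over the genotypes. The range of log2(FPKM + 1) over the 11 genotypes had a median of 0.82 over the 34 factors, from 0.35 for PAB2 to 2.35 for CAF1b. The same median was 1.24 over the 20704 genes at 1 FPKM or more, and 1.18 over the 14220 genes whose mean lay between the lowest and highest mean of the factors. A range of at least 1, a doubling on that scale, was seen for 13 of 34 factors, against 13477 of the 20704 genes. Among the 13 were CAF1b, CAF1a, PAB8, PAB4, EIN5, UPF2, SKI2, RRP44A, HESO1, AT1G54440, RRP4 and SOV. The genotype with the highest value was ski2-2 dcl4-2 for 13 factors and ein5-1 dcl4-2 for 7, and the lowest value fell in ein5-1 dcl4-2 for 6 factors and in ein5-1 dcl2-1 for another 6. The same counts were not made over all genes, so they do not set the factors apart from other genes.

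**Figure D1:**
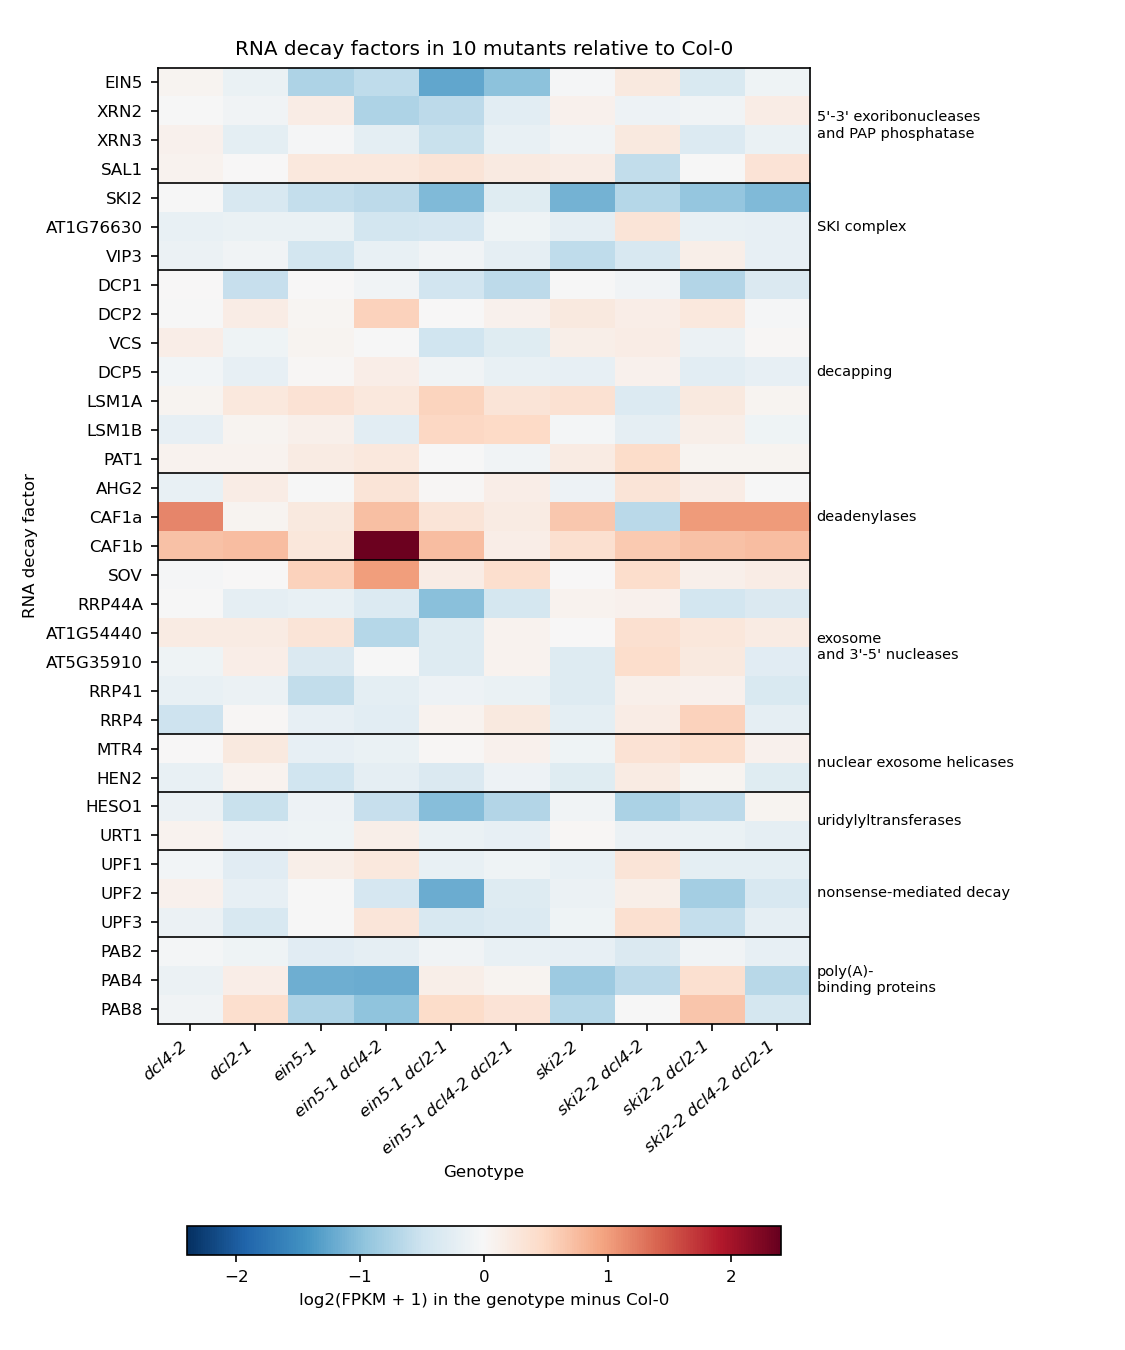
Colour gives log2(FPKM + 1) in each mutant (columns) minus that in Col-0 for 33 decay factors (rows), grouped by role; red is higher and blue lower than Col-0. Most cells are pale, and darker ones include CAF1b in ein5-1 dcl4-2 (difference 2.35), EIN5 and UPF2 in ein5-1 dcl2-1 (-1.24 and -1.18), PAB4 in ein5-1 and ein5-1 dcl4-2 (-1.18 and -1.19) and CAF1a in dcl4-2 (1.18).

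For 8 comparisons the authors' deposited table gave a log2 ratio and a q. A factor is said below to have risen or fallen where that q was at most 0.05 and the change at least 2-fold. In ein5-1 dcl4-2 over Col-0, 2 factors rose (CAF1b, SOV) and 1 fell (PAB4) by the authors' deposited table, 3 of 34, where 36.7% of all 19493 genes tested changed. Over ein5-1 the same double had 1 rise (CAF1b) and 1 fall (AT1G54440), against 30.7% of all genes. Over dcl4-2 it had 3 rises (CAF1b and SOV among them) and 2 falls (PAB4, AT1G54440), against 35.4%. Adding dcl2-1 to ein5-1 dcl4-2 gave 2 rises (PAB4, PAB8) and 1 fall (CAF1b), against 35.6%. The counts for ski2-2 dcl4-2 were smaller. Over Col-0 the count by Cuffdiff's q and 2-fold was 0 of 34, against 28.9% of all genes, although 19 of 34 had an unadjusted p under 0.05 in the authors' deposited table. As many, 19, passed the q alone, so it was the 2-fold rule that took the count to 0. One fell over ski2-2, against 27.6%, and 1 fell over dcl4-2, against 27.8%. One rose when dcl2-1 was added, against 28.0%. In the last 3 comparisons that factor was CAF1a. These comparisons share genotypes, ein5-1 dcl4-2 entering 4 of them and ski2-2 dcl4-2 the other 4, so they are not independent.

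Small shifts were more frequent. With the authors' q alone and no minimum size, 20 of 34 factors differed in ein5-1 dcl4-2 over Col-0 (10 higher, 10 lower), where 68.2% of all genes did. The counts were 15 over ein5-1 (10 higher, 5 lower) against 63.0%, 18 over dcl4-2 (8 higher, 10 lower) against 67.7%, and 22 on adding dcl2-1 (9 higher, 13 lower) against 67.3%. For ski2-2 dcl4-2 they were 19 over Col-0 (13 higher, 6 lower) against 60.4%, 23 over ski2-2 (19 higher, 4 lower) against 59.7%, and 17 over dcl4-2 (11 higher, 6 lower) against 59.8%. Adding dcl2-1 to ski2-2 dcl4-2 gave 23 (4 higher, 19 lower) against 60.4%. The share of factors past q was thus below that of all genes in 6 comparisons and above it, at 67.6%, in those of ski2-2 dcl4-2 with ski2-2 and with the triple. The median absolute log2 ratio of the factors was 0.26 to 0.43 in the authors' deposited table, against 0.57 to 0.75 over all genes.

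**Figure D2:**
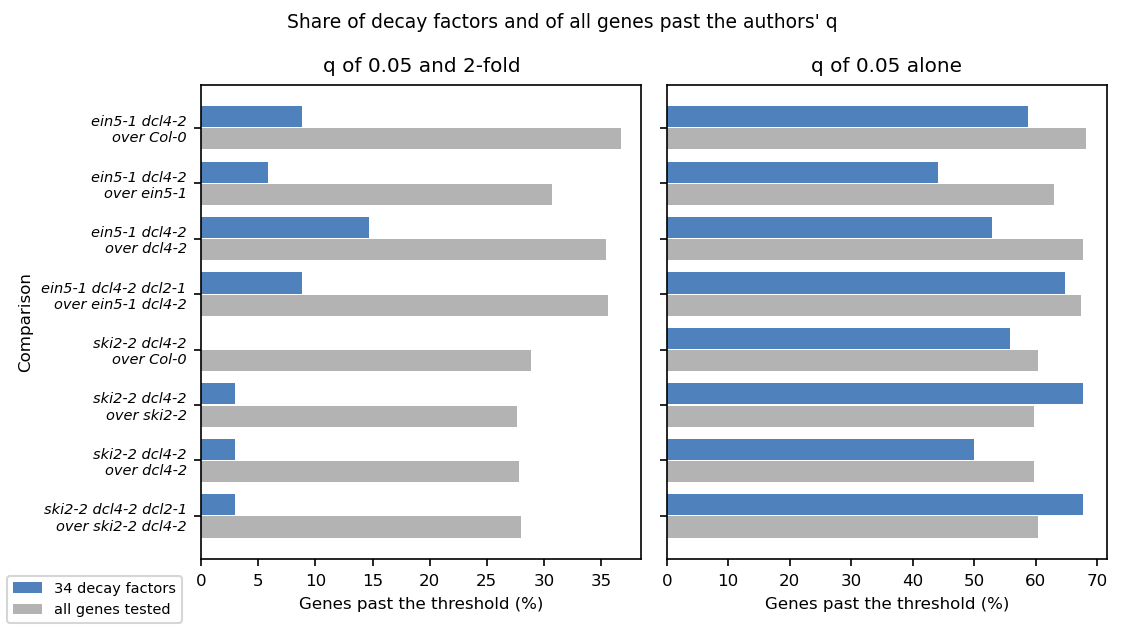
Bars give the percentage of the 34 decay factors (blue) and of all genes tested (grey) past the authors' q of 0.05 with a 2-fold change (left) or by q alone (right), for the 8 comparisons on the vertical axis. On the left the blue bars lie below the grey ones in all 8, with 0 factors in ski2-2 dcl4-2 over Col-0; on the right they lie above in 2.

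The other comparisons had no q and are described by size alone, a log2(FPKM + 1) difference of at least 1. In ein5-1 over Col-0, 1 factor was past that size (PAB4, lower), where 7.43% of all genes were. In ski2-2 it was SKI2, lower, against 5.56%, and in dcl4-2 it was CAF1a, higher, against 1.51%. None of the 34 passed in dcl2-1, against 9.26%, or in the triple ein5-1 dcl4-2 dcl2-1, against 8.25%. The triple ski2-2 dcl4-2 dcl2-1 had CAF1a higher and SKI2 lower than Col-0, against 5.48%. Adding dcl2-1 to ein5-1 left PAB4 and PAB8 higher and UPF2 lower, against 16.7%, and adding it to ski2-2 left PAB4 and PAB8 higher, against 15.5%.

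Transcript length moved with these values. The factors have long transcripts, with a median of 2744 bases in the TAIR10.1 annotation (767 to 4950), against 1708 bases for the 14046 protein-coding genes with a mean of at least 5 FPKM. In ein5-1 dcl2-1 the median difference from Col-0 over those genes went from 0.43 for transcripts under 750 bases to -0.67 for those of 4000 bases or more. The same medians were 0.37 and -0.22 in ein5-1 dcl4-2 and 0.25 and -0.23 in dcl2-1, and they ran the other way, -0.21 and 0.17, in ski2-2 dcl4-2. After the median of genes of like length was subtracted, the factors' median difference from Col-0 went from -0.17 to -0.02 in ein5-1 dcl4-2 and from 0.14 to 0.07 in ski2-2 dcl4-2. It went from -0.08 to -0.03 in dcl2-1, -0.10 to -0.01 in ein5-1 dcl2-1 and -0.10 to 0.07 in the ein5-1 triple. It changed little in ski2-2 dcl2-1 (0.03 before and after) and in the ski2-2 triple (-0.17 to -0.16). It grew in size in dcl4-2 (-0.02 to -0.06), ein5-1 (-0.02 to -0.07) and ski2-2 (-0.09 to -0.11). In ein5-1 dcl2-1 the centring turned the sign of the difference from Col-0 for VCS (-0.48 to 0.19), UPF1 (-0.17 to 0.50) and HEN2 (-0.34 to 0.33), among others. The part of length in the values below was not tested beyond this centring. Centred values stand beside some of the larger differences of long transcripts among the factors, and not all of these shrank.

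**Figure D3:**
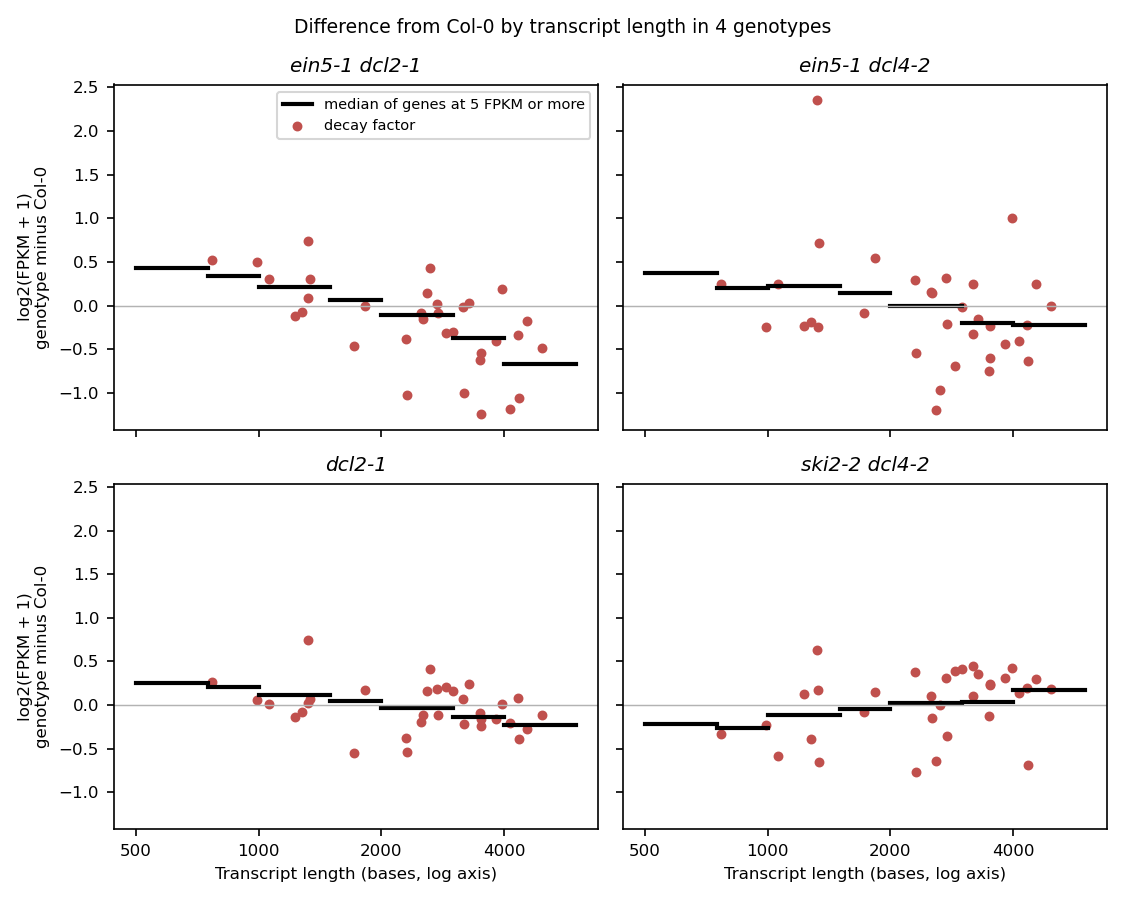
Each red point is 1 of the same 33 decay factors, placed by transcript length in bases (log axis) and by log2(FPKM + 1) in the named genotype minus Col-0; black lines are the medians in 7 length bins of the 14046 protein-coding genes with a mean of at least 5 FPKM. The lines fall with length in ein5-1 dcl4-2, dcl2-1 and ein5-1 dcl2-1 and rise in ski2-2 dcl4-2, and CAF1b stands far above its bin in ein5-1 dcl4-2.

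Among the 5′-3′ exoribonucleases, EIN5 (AT1G54490, chr1:20350109-20356916, TAIR10.1, plus strand), the cytoplasmic enzyme that digests decapped mRNA, was low wherever ein5-1 was present. Its level was 10.1 FPKM in ein5-1, 11.2 FPKM in ein5-1 dcl4-2, 6.88 FPKM in ein5-1 dcl2-1 and 8.43 FPKM in ein5-1 dcl4-2 dcl2-1. Without the allele it was 17.6 FPKM in Col-0, 18.5 FPKM in dcl4-2, 15.7 FPKM in dcl2-1, 17.1 FPKM in ski2-2, 20.8 FPKM in ski2-2 dcl4-2, 13.4 FPKM in ski2-2 dcl2-1 and 16.4 FPKM in ski2-2 dcl4-2 dcl2-1. The groups with and without ein5-1 did not overlap, as for 0.879% of all genes, and EIN5 was the only factor so separated by that allele. A transcript therefore remained in all 4 ein5-1 genotypes, and its level does not tell how much enzyme was made. The difference of -1.24 (log2(FPKM + 1)) between ein5-1 dcl2-1 and Col-0 was -0.87 after length centring. The nuclear exoribonuclease XRN2 (AT5G42540) was lowest, at 11.9 FPKM, in ein5-1 dcl4-2 and 20.6 FPKM in Col-0, a log2 ratio of -0.79 at a q of 0.000201 by the authors' deposited table, or -0.58 length-centred. XRN3 (AT1G75660), a nuclear enzyme of the same family, stayed within 14.6 to 25.7 FPKM. SAL1 (AT5G63980) encodes the phosphatase that removes PAP, a metabolite that inhibits the XRN enzymes. It was lowest in ski2-2 dcl4-2, at 50.5 FPKM, and 76.0 to 95.7 FPKM in the other 10 genotypes, with a log2 ratio to Col-0 of -0.58 and a q of 0.000211 by the authors' deposited table.

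SKI2 (AT3G46960, chr3:17290873-17298222, minus strand), the helicase of the SKI complex, was 6.91 FPKM in Col-0, 6.82 FPKM in dcl4-2 and 5.04 FPKM in dcl2-1. It was 2.62 FPKM in ski2-2, 3.90 FPKM in ski2-2 dcl4-2, 3.18 FPKM in ski2-2 dcl2-1 and 2.80 FPKM in ski2-2 dcl4-2 dcl2-1. Genotypes with ein5-1 were not at the level of Col-0 either, with 4.33 FPKM in ein5-1, 4.12 FPKM in ein5-1 dcl4-2, 2.82 FPKM in ein5-1 dcl2-1 and 5.50 FPKM in ein5-1 dcl4-2 dcl2-1. The value in ein5-1 dcl2-1 lay inside the range of the ski2-2 genotypes, so SKI2 did not separate the allele. Its difference from Col-0 there, -1.05 on the log2(FPKM + 1) scale, was -0.38 after centring on genes of like length. The same difference was -1.13 in ski2-2 (-1.12 centred) and -0.69 in ski2-2 dcl4-2 (-0.86 centred). It was -0.92 in ski2-2 dcl2-1 (-0.63 centred) and -1.06 in ski2-2 dcl4-2 dcl2-1 (-1.01 centred). None of the 34 factors separated ski2-2, against 0.217% of all genes, and none separated dcl4-2, against 0.27%. The other factors counted with the SKI complex moved less: AT1G76630, a tetratricopeptide repeat protein, ranged from 4.89 to 8.89 FPKM and VIP3 (AT4G29830), the WD-repeat protein that serves as SKI8, from 15.3 to 26.3 FPKM.

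**Figure D4:**
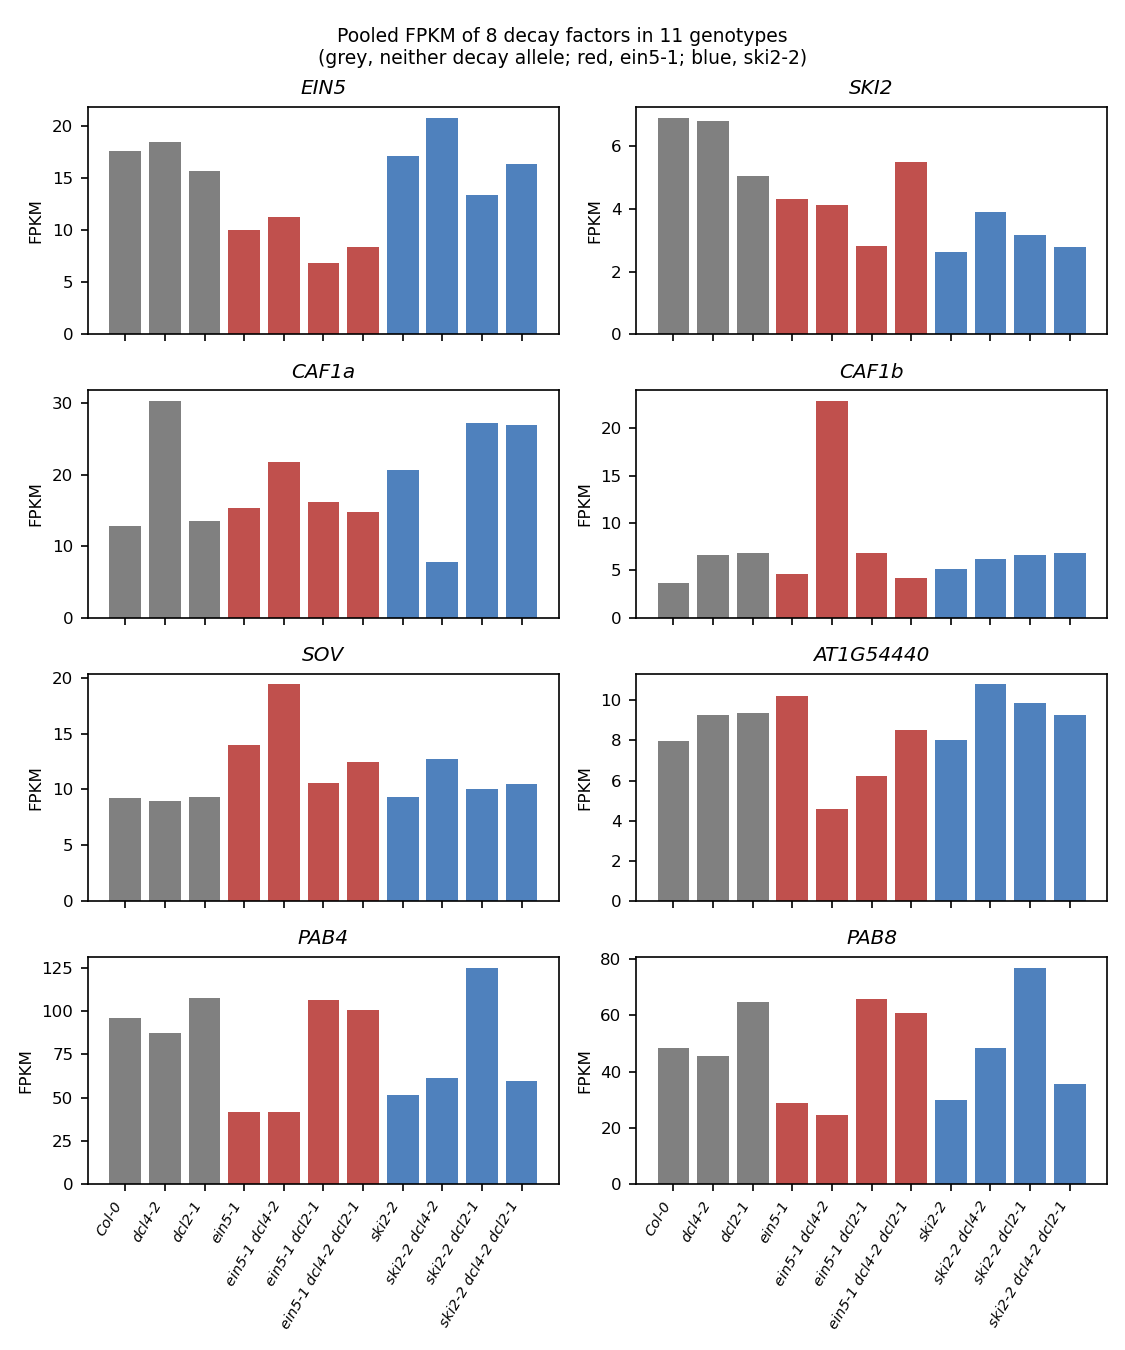
Bars give the pooled FPKM (vertical axes from 0) of 8 decay factors in the 11 genotypes; grey, no decay allele; red, with ein5-1; blue, with ski2-2. EIN5 is low in the 4 red bars, CAF1b is high in 1 genotype (22.9 FPKM), and PAB4 and PAB8 are low in ein5-1, ein5-1 dcl4-2 and ski2-2 and high in ein5-1 dcl2-1 and ski2-2 dcl2-1.

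The largest changes belonged to the stress-responsive catalytic subunits of the CCR4-NOT deadenylase. CAF1b (AT5G22250, chr5:7365477-7366799, minus strand) was 22.9 FPKM in ein5-1 dcl4-2. Its level was 3.67 FPKM in Col-0, 6.56 FPKM in dcl4-2, 6.81 FPKM in dcl2-1, 4.62 FPKM in ein5-1, 6.82 FPKM in ein5-1 dcl2-1 and 4.21 FPKM in ein5-1 dcl4-2 dcl2-1. It was 5.09 FPKM in ski2-2, 6.24 FPKM in ski2-2 dcl4-2, 6.57 FPKM in ski2-2 dcl2-1 and 6.79 FPKM in ski2-2 dcl4-2 dcl2-1. One genotype thus stood apart, and the other 10 lay within 3.67 to 6.82 FPKM. The rise in ein5-1 dcl4-2 had a log2 ratio of 2.64 over Col-0, 2.31 over ein5-1 and 1.80 over dcl4-2, and the fall on adding dcl2-1 one of -2.44, each at a q of 0.000201 by the authors' deposited table. That q was the smallest listed for these comparisons. Heat and defence marker genes stood high in the same genotype, HSP101 at 80.5 FPKM against 2.71 to 12.0 FPKM in the others and PR1 at 1658 FPKM against 9.38 to 202 FPKM, whereas RD29A, a drought and ABA marker, was 192 FPKM there and higher, 313 FPKM, in ski2-2 dcl4-2. The leaf markers RBCS1A and CA1 were low in both dcl4-2 doubles. CAB1, another leaf marker, was 5011 FPKM in ein5-1 dcl4-2. In ski2-2 dcl4-2 it was 11530 FPKM, near its level in ein5-1 (12490 FPKM) and ski2-2 (13090 FPKM). RBCS1A was 2872 FPKM in ein5-1 dcl4-2 and 4452 FPKM in ski2-2 dcl4-2, against 13620 to 28450 FPKM in the other 9, and CA1 was 109 and 220.0 FPKM against 2182 to 4677 FPKM. The part of these markers in the changes of CAF1b, CAF1a, SOV and PAB4 was not tested.

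CAF1a (AT3G44260, chr3:15952008-15953346, minus strand), the paralog of CAF1b, had another pattern. It was 30.3 FPKM in dcl4-2, 27.2 FPKM in ski2-2 dcl2-1, 27.0 FPKM in ski2-2 dcl4-2 dcl2-1, 21.8 FPKM in ein5-1 dcl4-2 and 20.7 FPKM in ski2-2. It was 12.8 FPKM in Col-0, 13.5 FPKM in dcl2-1, 15.3 FPKM in ein5-1, 16.1 FPKM in ein5-1 dcl2-1 and 14.8 FPKM in ein5-1 dcl4-2 dcl2-1, and lowest, 7.79 FPKM, in ski2-2 dcl4-2. CAF1a was thus high in the dcl4-2 and ski2-2 single mutants and below Col-0 in their double. The log2 ratio of ski2-2 dcl4-2 was -1.95 over dcl4-2 and -1.41 over ski2-2, and that of the triple over the double 1.79, each at a q of 0.000211 by the authors' deposited table. Against Col-0 the double did not pass the 2-fold rule. The difference between dcl4-2 and Col-0, 1.18 on the log2(FPKM + 1) scale, had no test. Root marker genes were high in ski2-2 dcl4-2 among these aerial samples: PYK10 was 673 FPKM against 14.9 to 254 FPKM in the other genotypes, NRT2:1 48.6 FPKM against 0.0624 to 2.22 FPKM, and AT4G30170 10.5 FPKM against 0 to 1.22 FPKM. What these had to do with the CAF1a value was not tested, and in bulk tissue fewer cells of a type and less RNA per cell cannot be told apart. The third deadenylase, AHG2 (AT1G55870), the plant PARN, stayed within 4.76 to 7.08 FPKM.

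The 250 bases before the annotated start of CAF1b, the factor that changed most, and of PAB8, described below with PAB4, are shown for context. Sequences are from RefSeq TAIR10.1, 5′ to 3′ on the strand of the gene, and capitals mark matches to the motifs searched on both strands.
CAF1b, chr5:7366800-7367049: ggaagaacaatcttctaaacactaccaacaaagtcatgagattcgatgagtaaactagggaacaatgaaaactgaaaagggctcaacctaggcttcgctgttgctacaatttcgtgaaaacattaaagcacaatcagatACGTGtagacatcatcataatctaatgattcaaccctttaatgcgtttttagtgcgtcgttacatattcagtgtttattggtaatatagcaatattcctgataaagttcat
PAB8, chr1:18416224-18416473: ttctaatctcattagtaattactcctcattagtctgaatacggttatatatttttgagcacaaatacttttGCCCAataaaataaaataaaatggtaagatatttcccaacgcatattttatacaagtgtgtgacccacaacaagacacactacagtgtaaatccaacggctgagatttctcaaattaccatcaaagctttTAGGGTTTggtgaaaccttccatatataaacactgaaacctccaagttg
The motifs were the W-box core TTGAC, the ABRE core ACGTG, the heat shock element GAANNTTC, the rapid stress response element CGCGTT, the telo-box AAACCCTA and the site II element TGGGC. CAF1b held 1 ABRE core, as did 23.1% of 26686 such windows of protein-coding genes. PAB8 held 1 telo-box, against 4.45% of all windows, and 1 site II element, against 22.9%. The W-box core, in 45% of all windows, the heat shock element, in 9.47%, and the CGCGTT element, in 2.59%, were in neither. No letters of one motif overlapped those of another in these windows, and a match describes letters, not a bound site. The window before PAB4 lies inside a neighbouring gene on the other strand and is not shown.

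The 7 decapping factors had log2(FPKM + 1) ranges of 0.41 (DCP5) to 0.86 (LSM1A) over the genotypes. DCP2 (AT5G13570), the decapping enzyme, ranged from 11.5 to 17.7 FPKM with its highest value in ein5-1 dcl4-2. VCS (AT3G13300), the scaffold of the decapping complex, ranged from 16.5 to 26.7 FPKM, and DCP5 (AT1G26110), a decapping activator, from 69.6 to 92.9 FPKM. LSM1A (AT1G19120) and LSM1B (AT3G14080), alternative subunits of the cytoplasmic LSM ring, ranged from 22.3 to 41.2 FPKM and from 13.4 to 23.1 FPKM. PAT1 (AT1G79090), the ring's partner, ranged from 16.2 to 23.8 FPKM. None of the 7 passed 2-fold in any of the 16 comparisons.

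DCP1 (AT1G08370, chr1:2638037-2640663, plus strand), the cofactor that activates DCP2, was lower in all 5 genotypes with dcl2-1 than in the 6 without. It was 15.5 FPKM in dcl2-1, 16.4 FPKM in ein5-1 dcl2-1, 14.5 FPKM in ein5-1 dcl4-2 dcl2-1, 13.9 FPKM in ski2-2 dcl2-1 and 18.0 FPKM in ski2-2 dcl4-2 dcl2-1. In the 6 genotypes without the allele it was 21.7 to 23.3 FPKM. UPF3 (AT1G33980, chr1:12351566-12355173, plus strand), a core nonsense-mediated decay factor, split in the same way, at 13.6 to 17.7 FPKM with dcl2-1 and 18.7 to 27.3 FPKM without. These 2 of 34 factors separated dcl2-1 without overlap, as 3.08% of all genes did. In the authors' deposited table, adding dcl2-1 to ein5-1 dcl4-2 gave log2 ratios of -0.58 for DCP1 and -0.65 for UPF3, both with a q of 0.000201. Adding it to ski2-2 dcl4-2 gave -0.28 for DCP1, with a q of 0.0578, and -0.62 for UPF3, with a q of 0.000211. Clock state, as read from CCA1, moved with 4 of these 5 genotypes. The morning gene CCA1 was 3.31 to 9.35 FPKM in dcl2-1, ski2-2 dcl2-1, the ein5-1 triple and ein5-1 dcl2-1, and 69.3 to 180 FPKM in the other 7, ski2-2 dcl4-2 dcl2-1 among them at 165 FPKM. In that genotype DCP1 and UPF3 were the highest of the 5 with the allele, at 18.0 and 17.7 FPKM. The part of clock state in the DCP1 and UPF3 values was not tested.

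**Figure D5:**
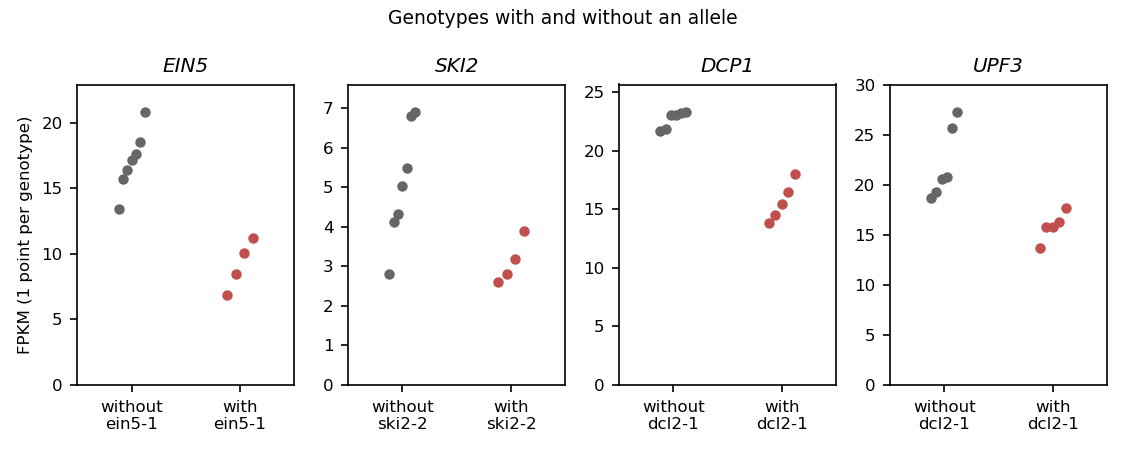
Points are genotypes, with the pooled FPKM on axes from 0, for genotypes without (grey) and with (red) the named allele. EIN5 with ein5-1 and DCP1 and UPF3 with dcl2-1 do not overlap, whereas SKI2 with and without ski2-2 overlaps at 2.82 FPKM.

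Of the 6 exosome subunits and 3′-5′ nucleases, SOV and AT1G54440 passed the q and 2-fold rule in some comparison. SOV (AT1G77680, chr1:29191720-29196290, minus strand), the cytoplasmic 3′-5′ exoribonuclease also known as RRP44B, was 19.4 FPKM in ein5-1 dcl4-2, 13.9 FPKM in ein5-1, 12.5 FPKM in ein5-1 dcl4-2 dcl2-1 and 10.6 FPKM in ein5-1 dcl2-1. It was 9.19 FPKM in Col-0, 8.99 FPKM in dcl4-2, 9.27 FPKM in dcl2-1, 9.27 FPKM in ski2-2, 12.7 FPKM in ski2-2 dcl4-2, 10.04 FPKM in ski2-2 dcl2-1 and 10.5 FPKM in ski2-2 dcl4-2 dcl2-1. The 2 highest values were therefore in genotypes with ein5-1, while the other 2 genotypes with that allele lay below ski2-2 dcl4-2, which lacks it. These are transcript levels and do not tell whether active SOV enzyme was made in any genotype. The rise in ein5-1 dcl4-2 had a log2 ratio of 1.08 over Col-0 and 1.11 over dcl4-2, both at a q of 0.000201 by the authors' deposited table. Quantile normalization took these to 0.83 and 0.87 and median-of-ratios scaling to 0.98 and 0.998, all under 2-fold, and length centring raised them to 1.29 and 1.35. The SOV transcript is 3963 bases long, and after length centring its levels separated the ein5-1 genotypes from the rest.

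AT1G54440, which carries the HRDC domain of the RRP6 family of exosome-associated nucleases, was lowest in ein5-1 dcl4-2, at 4.58 FPKM. It was 10.2 FPKM in ein5-1, 9.25 FPKM in dcl4-2, 7.997 FPKM in Col-0 and 6.24 to 10.8 FPKM in the other 7. The log2 ratio of the double was -1.15 over ein5-1 and -1.01 over dcl4-2, both at a q of 0.000201 by the authors' deposited table, and the latter was -0.88 as a log2(FPKM + 1) difference. After length centring the 2 ratios were -1.126 and -1.015. AT5G35910, of the same family, ranged from 9.96 to 17.7 FPKM. RRP44A (AT2G17510), the exosome's nuclease, was 5.36 FPKM in ein5-1 dcl2-1 and 8.30 to 12.6 FPKM elsewhere, and its difference of -0.995 from Col-0 was -0.63 after length centring. The core subunit RRP41 (AT3G61620) ranged from 10.3 to 17.5 FPKM, and the cap subunit RRP4 (AT1G03360) from 5.09 FPKM in dcl4-2 to 11.6 FPKM in ski2-2 dcl2-1. The helicases MTR4 (AT1G59760) and HEN2 (AT2G06990), which serve the nuclear exosome in the nucleolus and the nucleoplasm, ranged from 9.03 to 14.4 FPKM and from 7.35 to 12.4 FPKM, each with its lowest value in ein5-1.

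The uridylyltransferases differed in steadiness. URT1 (AT2G45620), which uridylates deadenylated mRNA, stayed within 19.9 to 25.9 FPKM. HESO1 (AT2G39740), which uridylates unmethylated small RNAs and cleaved transcripts, was 11.9 FPKM in Col-0, 10.8 FPKM in dcl4-2, 10.9 FPKM in ein5-1, 11.1 FPKM in ski2-2 and 12.5 FPKM in ski2-2 dcl4-2 dcl2-1. It was 5.38 FPKM in ein5-1 dcl2-1, 6.59 FPKM in ski2-2 dcl4-2, 6.95 FPKM in ein5-1 dcl4-2 dcl2-1, 7.40 FPKM in ski2-2 dcl2-1, 7.86 FPKM in ein5-1 dcl4-2 and 7.95 FPKM in dcl2-1. The first 5 genotypes were thus at or above 10.8 FPKM and the other 6 at or below 7.95 FPKM. By the authors' deposited table the log2 ratio of ski2-2 dcl4-2 over Col-0 was -0.84, and that of its triple over the double 0.92, both with a q of 0.000211 and neither 2-fold. The evening clock gene PRR5 was 0.117 to 0.568 FPKM in the first 5 and 11.9 to 31.1 FPKM in the other 6. ELF4 split in the same way, at 1.98 to 5.025 FPKM and 47.35 to 97.7 FPKM. The morning gene CCA1 was 85.45 to 180 FPKM in the first 5 and 3.31 to 80.0 FPKM in the other 6. The clock gene LHY did not split so: it was 148 FPKM in ein5-1 dcl4-2, inside the 47.3 to 232 FPKM of the first 5. The part of these clock genes was not tested. HESO1 overlaps a gene on the other strand by 297 bases, and the strandedness of the libraries is not stated.

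Nonsense-mediated decay removes transcripts with premature stop codons. UPF1 (AT5G47010), the central helicase, ranged from 23.5 to 35.5 FPKM. UPF2 (AT2G39260), which bridges UPF1 and UPF3, was 5.68 FPKM in ein5-1 dcl2-1 and 7.57 FPKM in ski2-2 dcl2-1, against 10.4 to 15.7 FPKM in the other 9. The difference of ein5-1 dcl2-1 from ein5-1, -1.17 on the log2(FPKM + 1) scale, was -0.48 after centring on genes of like length.

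The poly(A)-binding proteins coat the tail and both protect mRNA and aid its translation. PAB2 (AT4G34110), the most abundant of the 34 in every genotype, varied least, from 223 to 285 FPKM. PAB4 (AT2G23350, chr2:9942915-9946347, plus strand) was 41.8 FPKM in ein5-1, 41.5 FPKM in ein5-1 dcl4-2, 51.8 FPKM in ski2-2, 61.5 FPKM in ski2-2 dcl4-2 and 59.9 FPKM in ski2-2 dcl4-2 dcl2-1. It was 96.0 FPKM in Col-0, 87.5 FPKM in dcl4-2, 107.5 FPKM in dcl2-1, 106.5 FPKM in ein5-1 dcl2-1, 101 FPKM in ein5-1 dcl4-2 dcl2-1 and 125 FPKM in ski2-2 dcl2-1. All 5 low genotypes carry a decay allele, and the 3 decay mutants at or above the level of Col-0 are those with dcl2-1 and low CCA1. PAB8 (AT1G49760, chr1:18416474-18420111, plus strand) was 28.7 FPKM in ein5-1, 24.4 FPKM in ein5-1 dcl4-2, 29.9 FPKM in ski2-2 and 35.7 FPKM in ski2-2 dcl4-2 dcl2-1. It was 48.5 FPKM in Col-0, 45.4 FPKM in dcl4-2, 64.8 FPKM in dcl2-1, 65.8 FPKM in ein5-1 dcl2-1, 60.8 FPKM in ein5-1 dcl4-2 dcl2-1, 77.0 FPKM in ski2-2 dcl2-1 and 48.4 FPKM in ski2-2 dcl4-2. PAB8 thus followed PAB4 except in ski2-2 dcl4-2, where it was at the level of Col-0. In the authors' deposited table PAB4 fell in ein5-1 dcl4-2 by 1.21 on the log2 scale against Col-0 and by 1.08 against dcl4-2. Adding dcl2-1 to that double gave log2 ratios of 1.28 for PAB4 and 1.32 for PAB8 in the authors' deposited table, each with a q of 0.000201. The 4 genotypes with CCA1 at 3.31 to 9.35 FPKM were the 4 highest for both genes. The clock genes PRR5 and ELF4 were high in those 4 but also in 2 genotypes where PAB4 was low. They were 11.9 and 81.6 FPKM in ein5-1 dcl4-2, and 12.7 and 47.35 FPKM in ski2-2 dcl4-2. The part of clock state was not tested.

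A wider list of 57 further decay genes, of which 49 reached 1 FPKM in some genotype, was read in the same way. The other 8 could not be called, whereas the percentages below are over genes at 1 FPKM or more in a compared genotype. In ein5-1 dcl4-2, 5 of 57 rose and 2 fell over Col-0 (36.7% of all genes changed), 3 rose and 0 fell over ein5-1 (30.7%), and 6 rose and 1 fell over dcl4-2 (35.4%), by the authors' deposited table. Adding dcl2-1 gave 1 rise and 4 falls (35.6%). In ski2-2 dcl4-2, 1 of 57 rose over Col-0 (28.9%), 3 over ski2-2 (27.6%) and 5 over dcl4-2 (27.8%) with 0 falls in each, and adding dcl2-1 gave 1 rise and 4 falls (28.0%). These ski2-2 dcl4-2 counts moved with the processing. Over Col-0 the count was 2 after quantile normalization and 3 after length centring, and over ski2-2 it was 1 with log2(FPKM + 1) differences and 5 after length centring. With log2(FPKM + 1) differences it was 3 over dcl4-2 and 3 on adding dcl2-1. AT1G28260, annotated as Est1-like, passed in all 8. It was 9.56 FPKM in ein5-1 dcl4-2 and 12.2 FPKM in ski2-2 dcl4-2, against 2.29 to 4.67 FPKM in the other 9. SAL2, a paralog of SAL1, was 14.7 FPKM in ein5-1 dcl4-2 and 3.38 to 7.65 FPKM elsewhere, and AT5G09290, of the same phosphatase family, was 4.89 FPKM against 0.97 to 2.67 FPKM. AT5G10960, of the CAF1 family, was 221 FPKM in ein5-1 dcl4-2 and 93.8 to 167 FPKM elsewhere, and LSM6A, an LSM ring subunit, 93.9 FPKM against 39.1 to 72.7 FPKM. The exosome genes AT5G38890 and AT2G25355 were highest in ski2-2 dcl4-2, at 18.4 and 9.28 FPKM, and AT1G06450, another CAF1 relative, was 7.71 FPKM there against 2.42 to 4.58 FPKM. RRP41L, a relative of RRP41, was 2.64 FPKM in ein5-1 dcl4-2 and 4.48 to 8.29 FPKM elsewhere. AT1G21580, a zinc finger protein, was 5.76 FPKM in ein5-1 dcl4-2 and 13.6 FPKM in Col-0, but 3.31 FPKM in ein5-1 dcl2-1. It was highest, 19.6 FPKM, in ski2-2 dcl4-2. Its transcript is 7844 bases long. Over genes of 4000 bases or more, the median difference from Col-0 was -0.22 in ein5-1 dcl4-2 and -0.67 in ein5-1 dcl2-1. In ski2-2 dcl4-2 that median was 0.17. The part of length in the values of AT1G21580 was not tested.

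The mutated Dicer-like genes were read as a check of the labels. DCL2 was 1.23 to 2.35 FPKM in carriers of dcl2-1 and 4.89 to 9.02 FPKM in the rest, whereas the DCL4 transcript, at 2.98 to 4.89 FPKM in carriers of dcl4-2 and 3.15 to 6.91 FPKM in the rest, did not separate that allele. Leaf markers were detected throughout but lowest in ein5-1 dcl4-2 and ski2-2 dcl4-2, as given above for RBCS1A and CA1, except that CAB1 was listed at 0 in dcl2-1 although at 5011 FPKM or more in the other 10. Floral markers AP3, PI and AG were 0.331 to 5.03 FPKM. Paralogs such as CAF1a and CAF1b share sequence, and how reads matching both were assigned is not given in the sources used here. Of the 34 factors, 10 overlap an annotated gene on the other strand.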

How the data were processed

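Poly(A) RNA of 33 libraries, 3 for each of 11 genotypes, was sequenced as paired ends after a TruSeq preparation, per the labels' protocols. Reads were aligned with TopHat2 2.1.1 to TAIR10 and values computed with Cuffdiff, per the submitters' processing notes. The deposited FPKM values are 1 per gene and genotype, the authors having pooled the 3 libraries. The authors' log2 ratios, p-values and q-values stand in the deposited table for 8 comparisons. For ski2-2 dcl4-2 over Col-0 and over dcl4-2, the authors' log2 lies above that of the listed FPKM by a median of 0.0132 and 0.0163 (genes at 5 FPKM or more), so more than 1 run may lie behind the table; the other 6 match. Library values and read depth are not given, so precision rests on the authors' test, and whether the replicates were separate sowings is not stated.

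Changed genes had a q of at most 0.05, an authors' log2 of at least 1 in size and 1 FPKM in a compared genotype. The 8 other comparisons used a log2(FPKM + 1) difference of 1, with no test. An allele separated a gene where genotypes with and without it did not overlap. Length centring subtracted the median of genes in the same of 7 transcript-length bins and was added after the trend was seen. No test of library differences could be run on pooled values. One member is not reported here; the others are named, with every value for EIN5, SKI2, called factors and those of widest range, and the 10 called genes of the wider list with the largest differences. The members and lists were chosen with earlier results of these data known. Names, lengths and coordinates came from RefSeq TAIR10.1, which matched 32810 of 33557 genes. The code was tested on simulated data. Python 3.11.15, numpy 2.4.6 and pandas 2.3.3 were used.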

Additional observations from a re-analysis of the deposited data

Results flagged for a closer look

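Some factors moved in opposite directions on loss of the same Dicer in the ein5-1 and ski2-2 backgrounds, each by at least 0.4 (log2) with a q of at most 0.05 in the authors' deposited table. That size was chosen after the data were seen, and the differences themselves were not tested. On loss of DCL2 from the dcl4-2 doubles, CAF1a had a log2 ratio of -0.56 with ein5-1 and 1.79 with ski2-2 in the authors' deposited table, a difference of -2.35. PAB8 had 1.32 and -0.44 in the authors' deposited table, a difference of 1.75. RRP4 had 0.54 and -0.44 in the authors' deposited table, a difference of 0.98, with q of 0.0103 and 0.0407. SKI2, itself mutated in 1 of the backgrounds, had 0.42 and -0.48 in the authors' deposited table, a difference of 0.90. After length centring these were 0.38 and -0.21, both under 0.4 in size. On loss of DCL4 from the single decay mutants, CAF1a had 0.51 with ein5-1 and -1.41 with ski2-2 in the authors' deposited table, a difference of 1.92. After length centring these were 0.35, under 0.4, and -1.25. AT1G54440 had -1.15 and 0.43 in the authors' deposited table, a difference of -1.58.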

How the results depend on the processing

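With the authors' q and no minimum size, the counts of changed factors went to 20, 15, 18 and 22 for the ein5-1 dcl4-2 comparisons (over Col-0, over ein5-1, over dcl4-2, and on adding dcl2-1) and to 19, 23, 17 and 23 for the same comparisons of ski2-2 dcl4-2. With log2(FPKM + 1) differences the count over dcl4-2 in ein5-1 dcl4-2 was 3. After quantile normalization 2 factors changed in ski2-2 dcl4-2 over Col-0, 2 over dcl4-2 and 2 on adding dcl2-1. In both triples over Col-0, quantile normalization and median-of-ratios scaling each gave 1 factor past 2-fold. A pseudocount of 0.1 gave 1 in the ein5-1 triple. Length centring gave 1 in ski2-2 dcl4-2 over Col-0 and 1 in the ski2-2 triple. The ein5-1 allele separated 2 factors after quantile normalization and 2 after length centring, but 0 when a gap of 0.25 was required, which left 1 (DCP1) for dcl2-1. The cause of these moves was not tested. The other 110 values of this kind stayed within 1.5 times or within their direction, and no factor named as changed reversed. No paired analysis was possible because the columns hold 1 pooled value per genotype with no replicate. For the same reason leaving out single replicates was not run. Depth is not given, so low values, such as SKI2 at 2.62 FPKM, have no stated precision.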
